A study of Rattus norvegicus with 16 samples.

Results

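Genes of the choroid plexus, 9 in all, were followed in rat hippocampus: Ttr, Enpp2, Folr1, Slc4a5, Aqp1, Clic6, Kl, Prlr and Otx2. They were taken by name, and each of the 9 genes was read by 1 probe among 30367 probes that are no controls. The choroid plexus is the secretory epithelium of the brain ventricles. It makes the cerebrospinal fluid, and a fold of it lies directly along the hippocampus, so that dissected hippocampus can carry some of it. Ttr, the thyroid hormone and retinol carrier transthyretin, is its best known transcript.

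Arrays of 16 male Sprague-Dawley rats were analysed, 1 rat per array. The 3 Naïve rats were not handled, and the 2 Sham rats were anesthetized and prepared for injury without being injured. The 3 TBI rats received severe fluid percussion injury, a pressure pulse on the exposed dura. The same injury was given to 3 TBI+PMI-006 and 3 TBI+JM6 rats, which had the compound by oral gavage, and to 2 TBI+E2 rats, which had estradiol, called E33 in the labels. The labels give a subcutaneous route for estradiol and the methods an intraperitoneal one. Injured and Sham hippocampus was taken 24 h after injury or preparation. The whole hippocampus was extracted, so fewer cells of a type and less RNA per cell cannot be told apart.

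The Naïve, Sham and TBI arrays were scanned in one session and the drug-treated arrays in another, and a drug group and its session cannot be told apart in a comparison with TBI. Between 16274 and 18239 probes per array were well above background in the session of the Naïve, Sham and TBI arrays, and 20256 to 24979 in the session of the drug-treated arrays. Signals are given as log2 of the intensity after scaling each array to its own 75th percentile among detected probes, so that 0 stands for that percentile. Of 9 hippocampal neuron genes 8 were above background on all 16 arrays, among them Neurod6 and Nrgn, and the exception was Prox1, above background on 8 arrays. A set of 3 arrays stood apart in the choroid plexus genes, namely Naïve 2, Sham 1 and TBI+PMI-006 1, and the spread, the correlations and the group comparisons below are given with and without them.

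Otx2, a homeodomain transcription factor that choroid plexus epithelium needs, binds the letters TAATCC, and the promoters of the other genes were read for this motif on both strands. RefSeq promoters (GRCr8) were at hand for Ttr, Kl, Aqp1, Slc4a5 and, with 2 start sites, Prlr. In the 250 bases before the start, 0 of these 6 promoters held TAATCC, against 6.34% of 33469 promoters. Its core of 5 letters, TAATC, was searched after this result was seen and stood in 2 of the 6, those of Ttr and Kl, against 20.5% of all promoters. These 2 promoters are shown because they hold the core, 5′ to 3′, with the core in capitals and the last base next to the start.
Ttr (chr18:12218508-12218757, + strand): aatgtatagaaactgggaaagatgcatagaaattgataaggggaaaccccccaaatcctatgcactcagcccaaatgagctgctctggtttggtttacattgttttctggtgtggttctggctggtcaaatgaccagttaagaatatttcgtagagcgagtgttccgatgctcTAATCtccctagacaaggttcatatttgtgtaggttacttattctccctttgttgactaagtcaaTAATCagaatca
Kl (chr12:5325753-5326002, + strand): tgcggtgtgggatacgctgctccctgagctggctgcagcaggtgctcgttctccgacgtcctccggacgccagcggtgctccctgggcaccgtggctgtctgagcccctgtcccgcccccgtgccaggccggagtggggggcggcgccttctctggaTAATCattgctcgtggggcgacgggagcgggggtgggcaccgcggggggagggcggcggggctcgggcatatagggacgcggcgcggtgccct
The core lay 77 to 73 and 12 to 8 bases before the start of Ttr, and 93 to 89 bases before that of Kl. The Kl stretch has a GC content of 73.2% and the Ttr stretch of 40.4%. A match of letters does not show binding. Folr1, Enpp2, Clic6 and Otx2 were not in the promoter table.

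Ttr and Enpp2 encode secreted proteins. The probe for Ttr (rn4 chr18:12413621-12413680, transcript NM_012681) was above background on 16 of 16 arrays and saturated on 0. Its log2 signal was 1.55, 6.24 and 1.2 in the 3 Naïve rats and 6.90 and 2.25 in the 2 Sham rats. It was 1.77, -1.23 and -2.91 in the TBI rats. One Naïve and one Sham rat were thus high, and the TBI rats were below both Sham rats but overlapped with the Naïve rats. In the drug-treated rats the log2 signal of Ttr was 7.19, 2.88 and -2.55 with PMI-006, 0.76, -1.31 and -1.91 with JM6, and -1.71 and 0.21 with E2. The linear signal of Ttr differed 32.98-fold between the highest and lowest Naïve rat, 25.1-fold between the Sham rats, 25.6-fold among TBI rats and 851-fold among TBI+PMI-006 rats. Among TBI+JM6 rats it differed 6.37-fold and between the TBI+E2 rats 3.78-fold.

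Enpp2, which encodes the secreted lysophospholipase autotaxin, is also made by oligodendrocytes. Its probe (rn4 chr7:91296429-91301822, 5394 bases for a probe of 60) was above background on 16 of 16 arrays. The log2 signal of Enpp2 was 0.80, 2.0 and 0.48 in Naïve, 2.62 and 1.15 in Sham, and 0.37, 0.17 and -0.26 in TBI rats. It was 4.01, 0.90 and 0.78 with PMI-006, 0.93, 0.25 and -0.13 with JM6, and 0.75 and 0.30 with E2. The same 3 arrays were highest, over a smaller range, from 1.36-fold between TBI+E2 rats to 9.42-fold among TBI+PMI-006 rats.

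The carriers and channels of the epithelium were dimmer. Folr1 (probe at rn4 chr1:159315267-159315326), the folate receptor that moves folate into the cerebrospinal fluid, had a log2 signal of -6.70 (not well above background), -0.74 and -5.00 in Naïve, 0.24 and -3.30 in Sham, and -3.52, -4.89 and -4.52 in TBI rats. Its log2 signal was 1.41, -3.04 and -3.81 with PMI-006, -4.15, -3.88 and -3.93 with JM6, and -3.97 and -3.99 with E2. The JM6 and E2 rats were nearly level in Folr1, with an SD of 0.14 (n = 3) and 0.02 (n = 2) on the log2 scale, where the Naïve rats had an SD of 3.08 (n = 3). Aqp1 (chr4:84110125-84110184), the water channel of the apical membrane, was above background on 10 arrays, in 1 of 3 Naïve, 2 of 2 Sham and 0 of 3 TBI rats. Its log2 signal was -3.53 on Naïve 2, -1.39 on Sham 1 and -0.37 on TBI+PMI-006 1, and on the other 13 arrays it reached at most -4.38, on TBI+E2 2. Clic6 (chr11:32558944-32559003), a chloride channel family member, was above background on 4 arrays, the 3 that stood apart at -4.21, -1.96 and -0.67 and TBI+PMI-006 2 at -4.99. Slc4a5 (chr4:117515393-117515452), a sodium bicarbonate cotransporter of the same epithelium, was above background on 5 arrays. It is the exception to the pattern under the main scaling, because TBI+JM6 2 at -4.88 and TBI+E2 2 at -5.36 exceeded Naïve 2 at -5.53. Those 2 arrays were scanned in the other session than Naïve 2. Sham 1 was at -3.61 and TBI+PMI-006 1 at -2.24.

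The receptors and the transcription factor showed the same arrays. Kl (chr12:3732717-3732776) encodes klotho, the co-receptor of fibroblast growth factor 23, and was above background on 9 arrays. The log2 signal of Kl was -3.21 on Naïve 2, -1.62 on Sham 1 and -0.47 on TBI+PMI-006 1, with a highest value of -4.32 on the other arrays. All 3 TBI arrays were not well above background for Kl, and all 5 TBI+JM6 and TBI+E2 arrays were. Prlr (chr2:59677666-59678170), the prolactin receptor, was above background on 6 arrays, at -4.10, -2.93 and -0.65 on the same 3 arrays, at -5.20 on TBI+JM6 3 and at -5.01 and -4.90 on the TBI+E2 arrays. Otx2 (chr15:24623454-24623513) was above background on 10 arrays. Its log2 signal was -2.49 on Naïve 2, -2.38 on Sham 1 and -0.48 on TBI+PMI-006 1, and -4.24 on TBI+PMI-006 2, the next in order. Among TBI rats Otx2 was above background on TBI 1 alone, at -5.94.

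**Figure D1:**
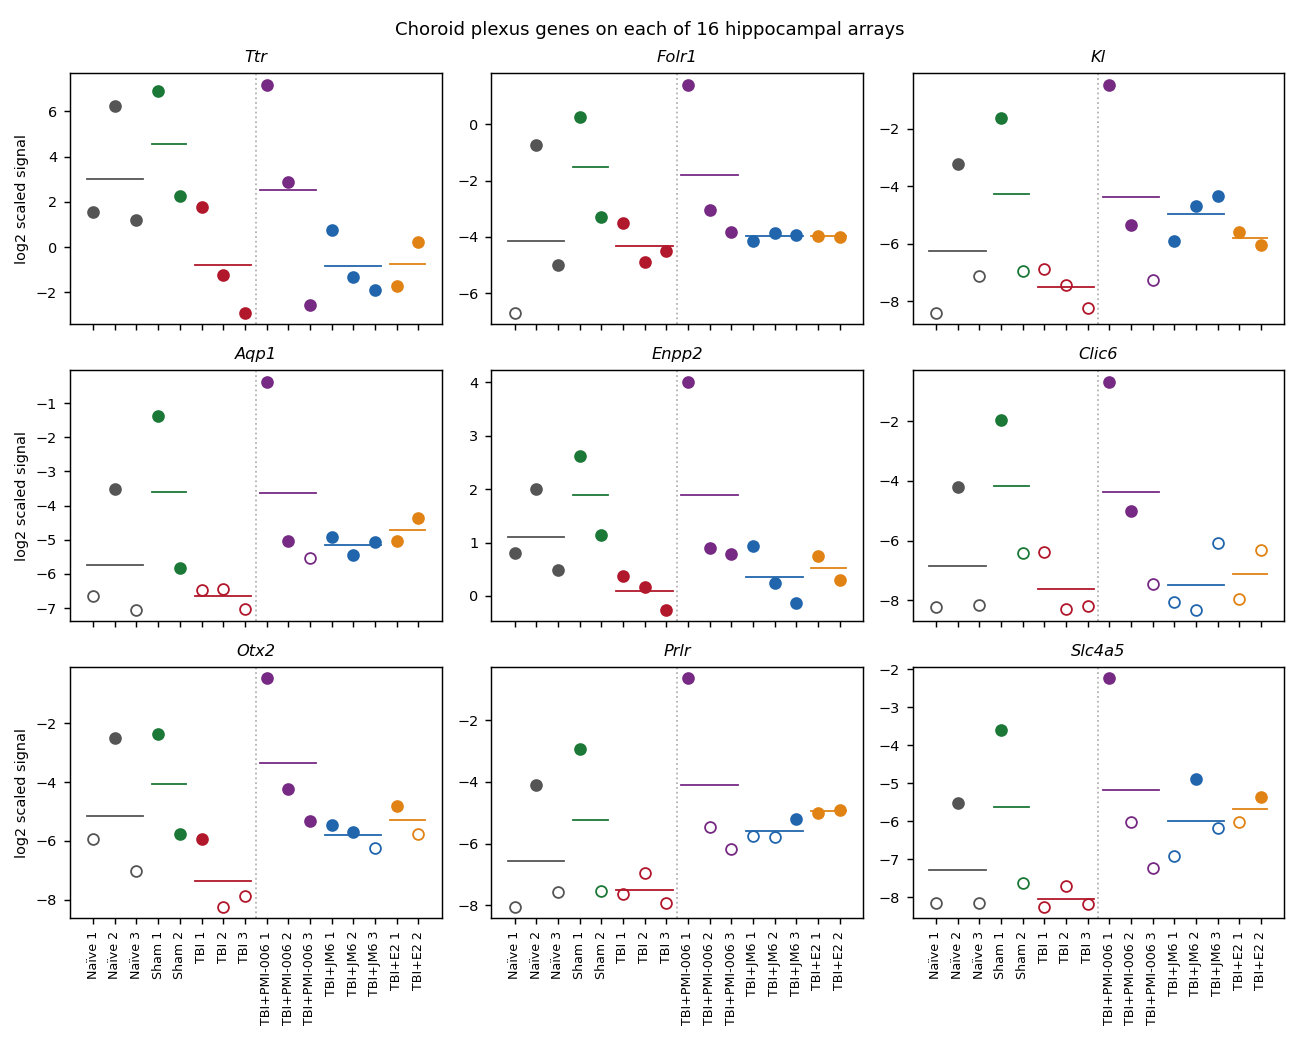
Log2 scaled signal (vertical axis, 0 is the 75th percentile of probes above background on the array) of 9 choroid plexus genes on 16 arrays (horizontal axis). Filled points are well above background, open points are not, lines are group means, and the dotted line parts the scanning sessions; Naïve 2, Sham 1 and TBI+PMI-006 1 are the highest of their groups in 9 of 9 genes.

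In 9 of 9 genes the highest Naïve array was Naïve 2, the highest Sham array Sham 1 and the highest TBI+PMI-006 array TBI+PMI-006 1, under the main scaling and under each of 4 others. The 3 arrays were chosen from the values of these same 9 genes, so their ranks and leads here describe that choice and are no test. Of 21895 tested probes measured on all arrays, 5.87% had all 3 of these arrays highest. The median lead over the next array of the group was 3.46 on the log2 scale for Naïve 2, 4.44 for Sham 1 and 4.32 for TBI+PMI-006 1, against -0.01, -0.21 and -0.10 over all tested probes. TBI+PMI-006 1 exceeded Sham 1, and Sham 1 exceeded Naïve 2, in 9 of 9 genes, or in 8 of 9 when the 75th percentile was taken over all probes and with the authors' matrix. The step from Naïve 2 to Sham 1 was 1.08-fold for Otx2, 1.58-fold for Ttr and 4.75-fold for Clic6. From Naïve 2 to TBI+PMI-006 1 it ranged from 1.93-fold for Ttr to 11.6-fold for Clic6, but this step crosses the scanning sessions, between which all tested probes shifted by a median of 0.79 on the log2 scale in TBI+PMI-006 vs. TBI. The 3 arrays were above all other 13 in 8 of 9 genes, Slc4a5 being the exception, and in 3 of 9 after the normexp background correction. They were above in 9 of 9 after quantile normalization, with the percentile over all probes and with the authors' matrix. Naïve 1, Naïve 2, Sham 1 and Sham 2 shared 1 slide, so high and low rats stood side by side on it, and the 3 TBI+PMI-006 arrays shared another.

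Spread between rats of one group was described by the SD of log2 signals around the group means, pooled over the 6 groups. It was 3.02 for Ttr, 2.36 for Kl, 2.25 for Clic6, 2.05 for Folr1, 1.97 for Prlr, 1.85 for Aqp1, 1.83 for Otx2, 1.70 for Slc4a5 and 1.0 for Enpp2. The median of the 22821 tested probes was 0.32 and their 95th percentile 0.91. Only 1 tested probe had a larger SD than Ttr, and 770 had a larger SD than Enpp2. For the 7 genes other than Ttr and Enpp2 part of the SD comes from arrays at background, on which the gene was not measured. Without the 3 high arrays the SD was 2.13 for Ttr, 1.18 for Clic6, 0.85 for Kl, 0.84 for Otx2, 0.68 for Slc4a5, 0.63 for Folr1, 0.39 for Prlr, 0.37 for Enpp2 and 0.33 for Aqp1. Over these 13 arrays the median of tested probes was 0.32 and the 95th percentile 0.88, so that Ttr and Clic6 alone lay above the 95th percentile, and 21 tested probes had a larger SD than Ttr. Clic6 was then above background on TBI+PMI-006 2 alone, so its SD comes almost wholly from arrays on which it was not measured. Under 4 other scalings the SD of Ttr was 2.83 to 2.97.

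**Figure D2:**
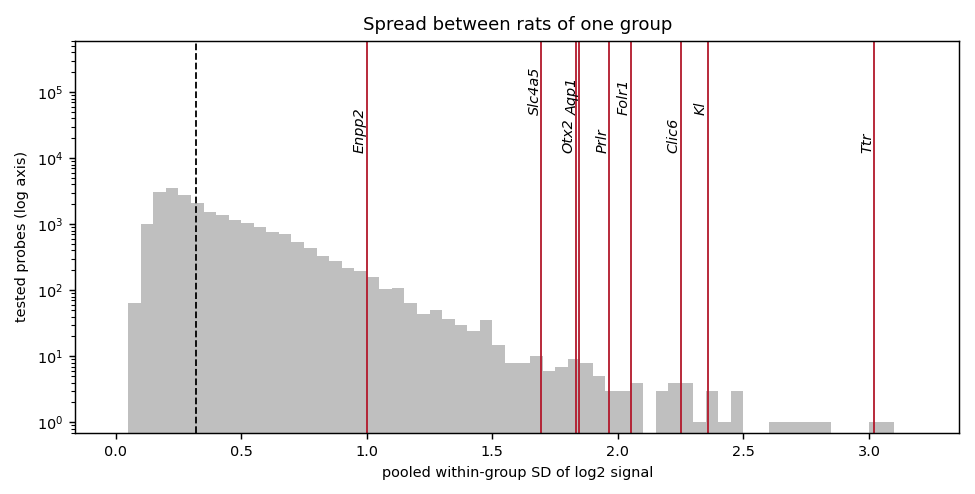
Number of tested probes (vertical log axis) by the pooled SD of log2 signal within groups (horizontal axis), with a red line at each choroid plexus gene and a dashed line at the median of tested probes, 0.32. The 9 genes lie between 1.0 (Enpp2) and 3.02 (Ttr), beyond the 95th percentile of 0.91.

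Whether the genes rose and fell together was tested within each session, as the correlation of each of the other 8 genes with Ttr over 8 arrays. Group means were not removed here, so differences between groups also enter r, and the permutation treats all arrays of a session as exchangeable. In the session of the Naïve, Sham and TBI arrays, Pearson's r was 0.79 (Folr1) to 0.97 (Otx2), and 8 of 8 relations passed an adjusted p under 0.05 in a two-sided exact permutation test over the 16 relations of both sessions, with adjusted p from 0.00159 to 0.0265. Spearman's rho was 0.62 to 0.95, and 4 of 8 relations passed by rho. Of these 8 arrays, Kl, Clic6, Prlr and Slc4a5 were well above background on 2, Naïve 2 and Sham 1, Aqp1 on 3 and Otx2 on 4. In the session of the drug-treated arrays, r was 0.76 (Slc4a5) to 0.89 (Otx2), and 5 of 8 relations passed, with exact permutation adjusted p from 0.0265 to 0.0571. Spearman's rho was 0.24 to 0.83 there, and 1 of 8 passed, that of Aqp1. Among these 8 drug-treated arrays Clic6 was well above background on 2, Slc4a5 on 3 and Prlr on 4.

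The high arrays form a cluster of their own, and these relations rest on them. Without Naïve 2 and Sham 1, which are also the arrays farthest from the median of Ttr, r over the other 6 arrays was -0.10 (Prlr) to 0.89 (Otx2), and 0 of 8 relations passed. Kl, Clic6, Prlr and Slc4a5 were at background on all 6 arrays, so how they varied with Ttr there was not measured. Among those 6 arrays Otx2 (r = 0.89, exact permutation p = 0.0222, adjusted p = 0.178) and Enpp2 (r = 0.88, exact permutation p = 0.0153, adjusted p = 0.178) were the closest to Ttr. Of these arrays Otx2 was well above background on Sham 2 and TBI 1 alone, and Enpp2 on all 6. Leaving out Naïve 2 alone or Sham 1 alone left 5 of 8 relations. Without TBI+PMI-006 1, r over the 7 other drug-treated arrays was 0.08 (Kl) to 0.60 (Folr1), and 0 of 8 passed. Without TBI+PMI-006 2 alone 1 of 8 passed. Without the 2 arrays farthest from the median of Ttr, TBI+PMI-006 1 and 2, r was -0.87 (Folr1) to 0.71 (Aqp1) over 6 arrays, and 0 of 8 passed. The normexp background correction left 1 of 8 relations in the session of the Naïve, Sham and TBI arrays and 0 of 8 in the other.

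**Figure D3:**
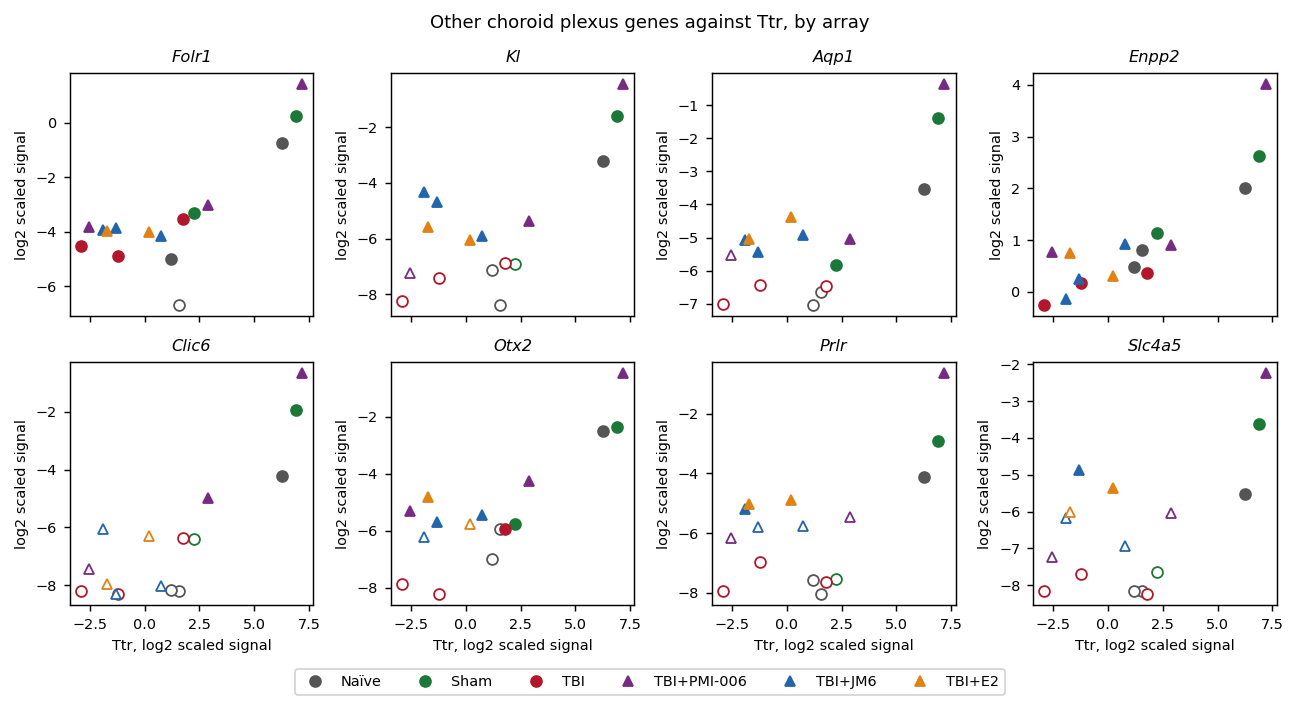
Log2 scaled signal of 8 choroid plexus genes (vertical axes) against that of Ttr (horizontal axis) on 16 arrays, circles for Naïve, Sham and TBI and triangles for the drug-treated arrays, open where the plotted gene is not well above background. Naïve 2, Sham 1 and TBI+PMI-006 1 lie at the upper right in 7 of 8 panels, the exception being Slc4a5, where TBI+JM6 2 and TBI+E2 2 exceed Naïve 2, and the other arrays spread over Ttr values from -2.91 to 2.88.

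As a description, deviations from the group means were also correlated between the genes over all 16 arrays. The 36 pairs had r of 0.78 (Ttr with Slc4a5) to 0.99 (Aqp1 with Prlr), with a median of 0.90. Removing a group mean makes the arrays of one group mirror each other, and these r rest on the same 3 arrays. Without them the 36 pairs had r of -0.36 (Enpp2 with Slc4a5) to 0.72 (Ttr with Aqp1), with a median of 0.31, over the 12 arrays of groups that kept more than 1 array. Of these 12, Clic6 was above background on TBI+PMI-006 2 alone. Slc4a5 was above it on 1 TBI+JM6 and 1 TBI+E2 array, and Prlr on 1 TBI+JM6 and 2 TBI+E2 arrays. Pairs with these genes rest largely on background values, so the lower median does not measure how the genes varied together. Among 29350 probes measured on all arrays, the other 8 genes ranked 27th (Otx2) to 210th (Slc4a5) by likeness to Ttr, and r with Ttr was 0.78 to 0.89. Of the 14288 probes above background on all arrays 13 had an r of at least 0.90, none of them a probe of the 9 genes. Among the 15 genes most like Ttr in these 14288 probes were Fzd6, Calml4, Glod5, Pigc, Fscn2, Gmpr, Msx1, Ift81, C11h21orf91, Styxl1, Mfsd2a, Acad11 and the transcripts ENSRNOT00000017903 and ENSRNOT00000004533, with r from 0.94 (Fzd6) to 0.90 (Acad11). Calml4, a calmodulin-like protein, and Msx1, a homeobox factor, were also on the list of other choroid plexus genes. The Calml4 probe here is not the brightest one, which the list used and which had an r under 0.90. The pooled SD of the 15 genes was 0.16 (Acad11) to 0.87 (Msx1). Over all 21894 other tested probes, Fmo2, Tekt2 and Sostdc1, a gene of the choroid plexus list, also came among the 15, with a pooled SD of 1.05, 1.01 and 3.1. The count of 13 probes became 0 to 2 under 4 other scalings.

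Other genes of the choroid plexus, on a list of 34 of which 32 had a probe, showed the same arrays. Among 31 measured on all arrays, Naïve 2 was the highest Naïve array in 27, Sham 1 the highest Sham array in 28 and TBI+PMI-006 1 the highest TBI+PMI-006 array in 30, against 49.4%, 28.1% and 37.8% of all tested probes. The log2 signal of Sostdc1, a secreted BMP and Wnt antagonist, was 0.01, 1.11 and 1.36 on Naïve 2, Sham 1 and TBI+PMI-006 1 and -7.91 to -4.80 on the other 13 arrays. Among those 13 it was well above background on Sham 2 and TBI+PMI-006 2 alone. Cldn2, the tight junction claudin of this leaky epithelium, was at -3.06, -1.40 and -0.68 on the 3 arrays. It was at -8.51 to -6.33 elsewhere, where no array was well above background for it. Kcne2, a potassium channel subunit, was at -1.41 on Naïve 2 and 0.52 on TBI+PMI-006 1, and its spot on Sham 1 was left out as an outlier. Igf2, insulin-like growth factor 2, which the meninges also make, was at 2.55, 2.32 and 3.0 against -1.59 to 0.30. Igfbp2 was at 2.19, 2.33 and 2.97 on the 3 arrays, and its range on the other arrays, -1.09 to 2.66, held the first 2 of these values. Summed over the list, the lowest and highest linear signal were 6.36 and 21.8 among Naïve rats, 10.2 and 24.4 among Sham rats, and 7.3 and 10.1 after TBI alone. The drug-treated rats, scanned in the other session, gave 11.8 and 41.4 (PMI-006), 15.1 and 17.3 (JM6), and 15.9 and 16.8 (E2). A linear sum is weighted to bright genes. On the TBI+JM6 arrays the log2 signal of Igfbp2 was 2.11 to 2.66, while Sostdc1 and Cldn2 were at background.

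Genes of other tissues that adjoin the hippocampus were set beside these. Of 11 genes of meninges and stroma, Naïve 2 was highest in its group in 11, TBI+PMI-006 1 in 11 and Sham 1 in 4. Ogn, the small proteoglycan osteoglycin, was at 0.92 on Naïve 2, -0.17 on TBI+PMI-006 1 and -2.50 on Sham 1, and at -4.66 to -1.25 on the other arrays. Col1a2, a chain of type I collagen, was at 0.43 and -0.55 on Naïve 2 and TBI+PMI-006 1, and at -3.34 on Sham 1. Sham 1, with a Ttr signal higher than that of Naïve 2, was thus not high in these 2 stromal genes. The median lead on the log2 scale was 3.38 for Naïve 2, 1.35 for TBI+PMI-006 1 and -1.30 for Sham 1 over the list. Summed over these 11 genes, the lowest and highest linear signal were 1.63 and 12.3 among Naïve rats, 2.12 and 3.82 among Sham rats, and 1.28 and 1.58 after TBI alone. The drug-treated rats, scanned in the other session, gave 2.16 and 9.05 (PMI-006), 2.72 and 3.26 (JM6), and 3.0 and 3.17 (E2).

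Ciliated ependyma, which lines the ventricle wall, moved less. Of its 8 genes measured on all arrays, Naïve 2 was highest in 7, TBI+PMI-006 1 in 7 and Sham 1 in 2, and the median lead was 0.61, 0.43 and -0.20. Of 3 red blood cell genes measured on all arrays, Naïve 2 and TBI+PMI-006 1 were highest in 3 and Sham 1 in 0. Of 6 genes of thalamus and habenula the 3 arrays were highest in 5, 3 and 4, with a median lead of 0.72, 0.09 and 0.22. Prkcd, a kinase abundant in thalamus, was at 0.33 on Naïve 2, -3.27 on Sham 1 and -2.03 on TBI+PMI-006 1, and at -3.53 to -1.65 on the other arrays, while Tac2, a tachykinin of the habenula, was at 0.41 on Naïve 2, below the other 13 arrays. Among 9 genes of oligodendrocytes, which also make Enpp2, the 3 arrays were highest in 4, 3 and 3, with a median lead of -0.03, -0.11 and -0.24. Among 9 hippocampal neuron genes they were highest in 2, 2 and 2. The share that any of these tissues has in the signals of the 9 genes was not tested.

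**Figure D4:**
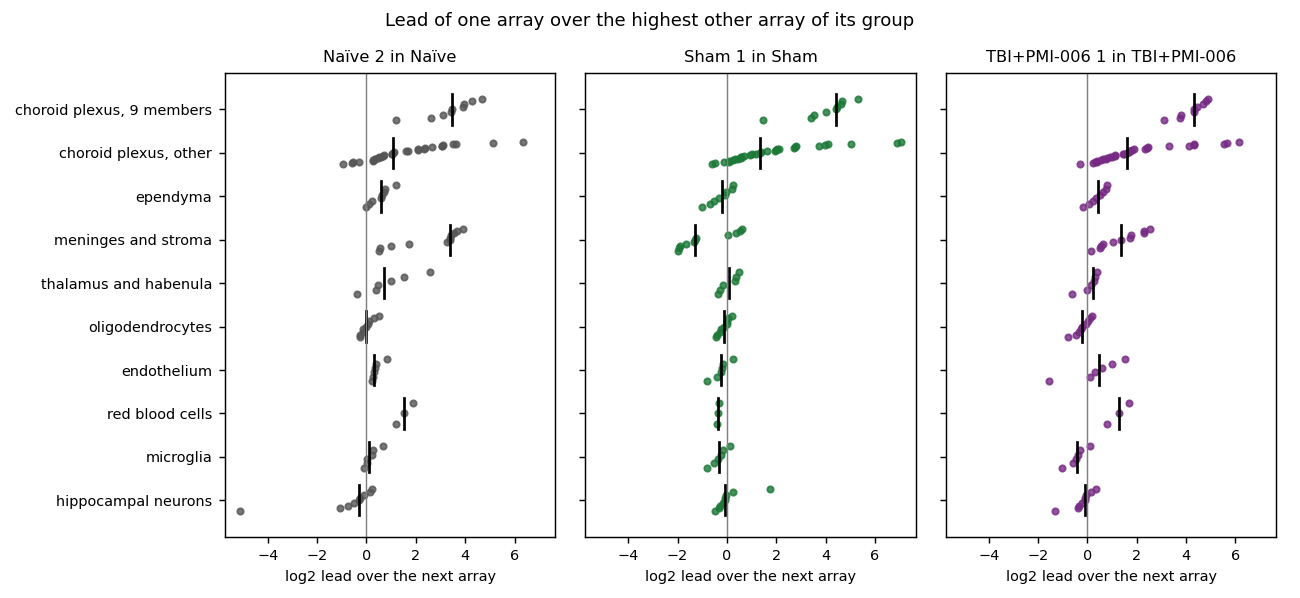
Log2 lead of Naïve 2, Sham 1 and TBI+PMI-006 1 over the highest other array of the same group (horizontal axes), 1 point per gene measured on all arrays and a black bar at the median of each gene list. The 9 choroid plexus genes, from which the 3 arrays were chosen, have medians of 3.46, 4.44 and 4.32, and meninges and stroma genes have 3.38, -1.30 and 1.35.

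Injury was compared with Sham and Naïve rats in the 7 genes that could be tested, since Clic6 and Slc4a5 did not pass the filter on dim probes. In TBI vs. Sham, limma called 0 of 7, against 9.38% of all tested probes, and 3 had an unadjusted p under 0.05. The methods' t-test passed 0 of 7 at its own threshold and after adjustment, against 13.4% of all tested probes at its own threshold. Ttr was 4.57 ± 3.29 (SD, n = 2) in Sham and -0.79 ± 2.37 (SD, n = 3) in TBI rats on the log2 scale, a difference of -5.36 (SE 2.45, limma adjusted p = 0.187). Enpp2 differed by -1.79 (SE 0.82, adjusted p = 0.187 by limma) and Otx2 by -3.27 (SE 1.49, adjusted p = 0.185 by limma). All 7 differences were below 0, here and under each of 4 other scalings, with a median of -3.04 against -0.03 over all tested probes. Both Sham arrays were on slide 1 and the 3 TBI arrays on slide 2, so injury and slide cannot be told apart between these groups. Only the Naïve arrays lay on both slides. With the slide as a fixed block the difference of Ttr was -2.66 (limma adjusted p = 0.89). The TBI and Sham arrays did not overlap in 6 of 9 genes, against 41.5% of all tested probes. Among the 6 was Slc4a5, which failed the filter. It was not well above background on Sham 2 or on any TBI array, so its order there was not measured. Without Naïve 2, Sham 1 and TBI+PMI-006 1 the Sham group is 1 rat, assumed to vary like the other groups. The difference was then 0.03 for Prlr and -0.58 for Kl, so that not all 7 stayed below 0. Neither gene was well above background on Sham 2 or on any TBI array, so their direction was then not measured. Folr1, Aqp1, Enpp2 and Otx2 differed by -1.01, -0.82, -1.05 and -1.58 without the 3 arrays. The difference of Ttr was then -3.04 (SE 2.08, adjusted p = 0.449 by limma) and 0 of 7 were called, against 0.646% of all tested probes.

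In TBI vs. Naïve, limma called 0 of 7, against 4.71% of all tested probes, with 0 at an unadjusted p under 0.05 and 0 by the methods' t-test, which passed 13.9% of all tested probes. The difference was -3.79 for Ttr (SE 2.19, limma adjusted p = 0.357) and -0.16 for Folr1 (SE 1.49, limma adjusted p = 0.968), and the groups did not overlap in 1 of 9 genes, Enpp2, against 22.9% of all tested probes. Without the 3 high arrays the difference was -2.16 for Ttr (SE 1.64, limma adjusted p = 0.535), and that of Folr1 turned to 1.54 (SE 0.51, limma adjusted p = 0.145). Kl, Aqp1 and Prlr, at -1.26, -0.90 and -0.94 with all arrays, were then not well above background on any array of either group. 0 of 7 were called, against 2.55% of all tested probes. In Sham vs. Naïve, 0 of 7 were called, against 8.07% of all tested probes, again with 0 at an unadjusted p under 0.05 and 0 by the methods' t-test, which passed 15.95% of all tested probes. Ttr differed by 1.58 (SE 2.45, limma adjusted p = 0.771) and the groups overlapped in 9 of 9 genes, where 39.0% of all tested probes did not overlap. Without Sham 1, which leaves 1 Sham rat, the difference of Ttr was -0.75, and without Naïve 2 as well it was 0.88, with 0 of 7 called against 1.58% of all tested probes. With SEs above 2 log2 units, a difference of several log2 units in Ttr could not be told from the spread between rats.

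The drug groups were compared with TBI across sessions, where the median of all tested probes was shifted by 0.99 (JM6), 0.79 (PMI-006) and 1.08 (E2) on the log2 scale. In TBI+PMI-006 vs. TBI, limma called 1 of 7 genes, against 56.7% of all tested probes, and 4 had an unadjusted p under 0.05. The called gene was Otx2, at -0.48, -4.24 and -5.32 with PMI-006 and at -5.94, -8.23 and -7.86 in TBI rats, where TBI 2 and TBI 3 were not well above background. Its difference was 4.0 (SE 1.33, limma adjusted p = 0.0216), and the groups did not overlap. Its adjusted p ran from 0.00708 to 0.663 over the alternatives, and the call was lost in 8 of 16 of them, among them each of 4 other scalings. Without TBI+PMI-006 1 the difference was 2.57 and 0 of 7 were called, and over 17 alternatives the count of called genes ran from 0 to 6, the last without TBI+PMI-006 3. Ttr differed by 3.30 (SE 2.19, limma adjusted p = 0.208), and without TBI+PMI-006 3 by 5.82 (limma adjusted p = 0.0240). All 7 differences were above 0, here and under each of 4 other scalings, with a median of 3.15. The groups did not overlap in 5 of 9 genes, against 62.5% of all tested probes, and the methods' t-test passed 0 of 7, against 52.4%. Among the 5 were Aqp1, Prlr and Slc4a5, at background on all TBI arrays and on at least 1 TBI+PMI-006 array.

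In TBI+JM6 vs. TBI, limma called 0 of 7, against 70.1% of all tested probes, with 0 at an unadjusted p under 0.05. In TBI+E2 vs. TBI it called 0 of 7, against 70.3%, again with 0 at an unadjusted p under 0.05. The difference of Ttr was -0.03 (SE 2.19) with JM6 and 0.04 (SE 2.45) with E2, both below the shift of all tested probes. The groups did not overlap in 4 of 9 genes with JM6, against 73.2% of all tested probes, and in 5 of 9 with E2, against 85.0%. The 4 with JM6 included Prlr and Slc4a5, at background on all TBI arrays and above it on 1 TBI+JM6 array. The 5 with E2 included Slc4a5, above background on 1 TBI+E2 array, and Otx2, above it on 1 array of either group. With JM6 6 of 7 differences were above 0 and with E2 7 of 7, but after quantile normalization, which took the shift away, 2 of 7 were above 0 in either comparison. With the matrix of the authors 2 of 7 and 1 of 7 were above 0, with the percentile over all probes 4 of 7 in either, and with normexp 7 of 7 and 6 of 7. The methods' t-test passed Aqp1, Kl and Prlr in TBI+JM6 vs. TBI and Aqp1 and Prlr in TBI+E2 vs. TBI, before and after adjustment, where 62.4% and 60.8% of all tested probes passed. Without Naïve 2, Sham 1 and TBI+PMI-006 1, limma called 4 of 7 with JM6, 4 of 7 with E2 and 3 of 7 with PMI-006, where 69.2%, 69.4% and 47.2% of all tested probes were called. Aqp1, Otx2 and Prlr were called in all 3 and Kl with JM6 and E2. All 3 TBI arrays were not well above background for Aqp1, Kl and Prlr, and Kl and Prlr passed the filter on dim probes only through drug-treated groups, so that these genes were tested through the groups in which they are high, and no support is drawn from these calls. Against the lowest detected signal on the TBI arrays, Aqp1 was at least 1.76-fold higher with JM6 and at least 2.40-fold with E2. Without TBI+PMI-006 1 it was 1.61-fold higher with PMI-006, which is no bound, since 1 of the 2 arrays left was at background. Kl was at least 1.99-fold higher with JM6 and at least 1.12-fold with E2, and Prlr at least 2.01-fold with E2. These folds cross the scanning sessions and include the shift between them. Over all tested probes that shift had a median of 0.99 (JM6), 0.79 (PMI-006) and 1.08 (E2) on the log2 scale.

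**Figure D5:**
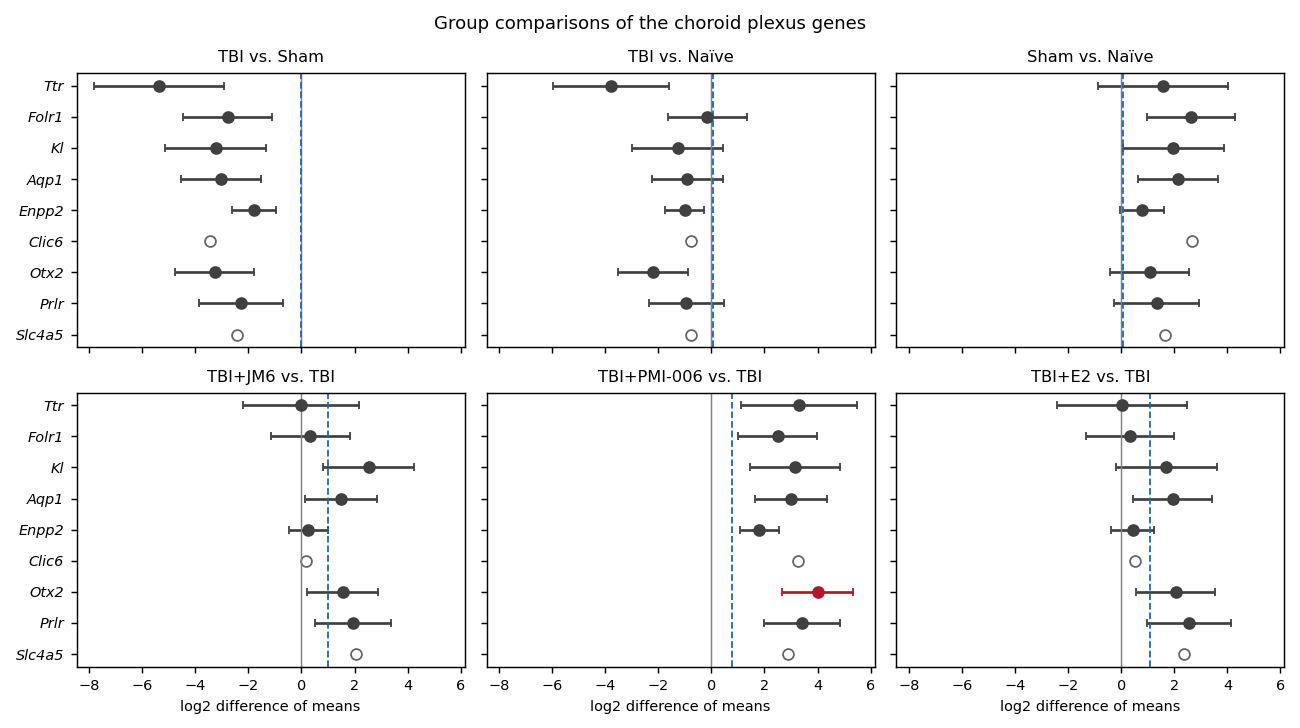
Log2 difference of group means (horizontal axes) with its SE from limma for 7 tested choroid plexus genes, open points without SE for Clic6 and Slc4a5, a dashed blue line at the median of all tested probes and red for the called gene. Only Otx2 in TBI+PMI-006 vs. TBI was called, differences of Aqp1, Kl and Prlr from TBI are against arrays at background, and in the 3 drug comparisons the dashed line lies at 0.79 to 1.08.

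The list of other choroid plexus genes was read in the same fit. In TBI vs. Sham, 2 of its 29 tested genes fell, Slc29a4 by 1.05 (SE 0.29) and Ltc4s by 1.99 (SE 0.50) on the log2 scale, and 0 rose, where 9.38% of all tested probes were called, with a median of -1.19 against -0.03 over all tested probes. Slc29a4 is a monoamine and nucleoside transporter and Ltc4s the leukotriene C4 synthase. Without the 3 arrays, which leaves 1 Sham rat, the median was -0.52. Under 4 other scalings 0 or 1 were called, where 0.0175% to 12.4% of all tested probes were called. In TBI vs. Naïve 0 of 29 were called, and in Sham vs. Naïve Krt8 rose by 2.71 and Slc29a4 by 1.40, where 4.71% and 8.07% of all tested probes were called. Krt8 was not well above background on Naïve 1 or Naïve 3, so its rise is against a group mostly at background. Without the 3 arrays 1 of 29 was higher in TBI vs. Naïve, where 2.55% of all tested probes were called. Across sessions 9 (JM6), 11 (PMI-006) and 5 (E2) of 29 rose and 0 fell, where 70.1%, 56.7% and 70.3% of all tested probes were called, and the median of the list was 0.72, 1.35 and 0.99. Without the 3 arrays 15, 6 and 14 rose, where 69.2%, 47.2% and 69.4% of all tested probes were called. After quantile normalization 1, 3 and 0 of 29 were higher and 1, 0 and 1 lower. Of all tested probes 27.2%, 19.2% and 20.4% were then called. Car12, a membrane carbonic anhydrase, rose by 2.75 with JM6, which became 1.44 after quantile normalization (limma adjusted p = 0.0306).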

How the data were processed

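Gene expression was measured on single-colour Agilent rat arrays from 16 rats. According to the deposited scanner files, made with Agilent Feature Extraction 9.5.3.1, the intensity of each spot was background subtracted within its array and not normalized between arrays. The matrix of the authors gives, as a ratio, intensities scaled at the 75th percentile, and was used as an alternative. Spots marked as outliers were left out, replicate spots were averaged, intensities were scaled so that the 75th percentile over detected probes is 1 on every array, and log2 values were formed. Probes detected (well above background) throughout at least 1 group were tested in 1 limma model with all arrays, with Benjamini-Hochberg adjustment over 22821 probes and a threshold of 0.05. The methods' t-test required an unadjusted p under 0.05 and more than 1.2-fold. Correlations used an exact permutation of pairings. In the gene lists a gene with several probes was taken by its brightest one, and each of the 9 genes had 1. Likeness to Ttr was ranked by probe. Current symbols came from RefSeq for 68.1% of probes. The number of arrays limits the precision.

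The genes, gene lists, tests and alternatives were chosen with earlier results of these data known. Named besides the 9 genes were the 15 genes most like Ttr, of which 1 is not reported here, and genes of the fixed lists. Alternatives were quantile normalization, the percentile over all probes, normexp (offset 50), no filter, a filter over all 16 arrays, the matrix of the authors, the t-test, the 2 groups alone, slide and replicate blocks, and each array left out; leaving out the 3 high arrays, and reading the other choroid plexus genes and the direction of the 9 genes under each scaling, were added after seeing the data. Same-numbered replicates did not deviate together (r over 0.1 in 3 of 36 pairs), so numbers do not pair samples. Which amplification kit served which rat is not given in the sources used here. The scripts were tested on simulated data. R 4.3.3 with limma 3.58.1 and Python 3.11.15 were used. A gene at background on all TBI arrays has only a bound there, set at the lowest signal of a detected probe on each array.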

Additional observations from a re-analysis of the deposited data

How the results depend on the processing

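No choroid plexus gene was called in TBI vs. Sham, TBI vs. Naïve or Sham vs. Naïve under any alternative run. In TBI+PMI-006 vs. TBI, where 1 gene was called, the count was 0 with quantile normalization, with the percentile over all probes, with normexp, the matrix of the authors and the methods' t-test, 4 with the slide as a random block and 2 with the replicate block. It was 0 to 6 when single arrays were left out, 0 without TBI+PMI-006 1, TBI 2 or TBI 3 and 6 without TBI+PMI-006 3, and 3 without the 3 high arrays. In TBI+JM6 vs. TBI the count was 3 with the methods' t-test, 3 with limma on the 2 groups alone and 4 without the 3 high arrays, and in TBI+E2 vs. TBI it was 2, 3 and 4.

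The count of genes correlated with Ttr was 8 and 5 in the sessions of the Naïve, Sham and TBI and of the drug-treated arrays. It was 1 and 0 with normexp, 0 and 0 without the 2 arrays farthest from the median of Ttr, and 0 and 0 without the high arrays. With single arrays left out it was 5 to 8 and 0 to 7. The count of probes with an r of at least 0.90 with Ttr was 13, and 0 with quantile normalization, 2 with the percentile over all probes, 1 with normexp and 2 with the matrix of the authors.

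The difference of Ttr changed sign in Sham vs. Naïve without Sham 1, with values from -0.75 to 3.90 as single arrays were left out. In TBI+JM6 vs. TBI (-0.03) it became 0.23 with normexp, 0.08 with the slide as a random block, and lay between -1.09 and 1.25 as single arrays were left out, above 0 without TBI 1, TBI+JM6 2 or TBI+JM6 3. In TBI+E2 vs. TBI (0.04) it became -0.82 with quantile normalization, -0.79 with the percentile over all probes and with the matrix of the authors, -1.22 with the replicate block, and lay between -1.02 and 1.32 as single arrays were left out, below 0 without TBI 2, TBI 3 or TBI+E2 2. The cause of these changes was not tested. Averaging several probes was not run, since each gene has 1 probe. Weak signals limit Clic6 and Slc4a5, above background on 4 and 5 arrays. Without the 3 high arrays the SD of Ttr within groups was 2.13 in place of 3.02, and the median r of the 36 pairs of genes 0.31 in place of 0.90. Clic6, Slc4a5 and Prlr were then at background on most arrays.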
